A study of Mus musculus with 2 samples.

Results

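Subunits of the BAF chromatin remodelling complex that are exchanged when neural progenitors become neurons were compared between E14 and E14-Sox2TA/WT teratomas, with 1 RNA-seq library of each. The genes were chosen by symbol from the deposited expression table, as 10 of its 45777 genes. They comprised the 2 alternative ATPases Smarca4 and Smarca2, the 4 progenitor-type subunits Actl6a, Dpf2, Phf10 and Ss18, and the 4 neuronal-type subunits Actl6b, Dpf1, Dpf3 and Ss18l1. All 10 were measured in both libraries.

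E14 is a mouse embryonic stem cell (ESC) line, wild type for Sox2. The E14-Sox2TA/WT cells are a selected E14 clone in which Cas9 editing changed a threonine of Sox2 to alanine (T258A) on 1 allele, and the other allele stayed wild type. This threonine is a site that carries O-GlcNAc, a sugar added to nuclear proteins. Cells of each genotype were inoculated under the skin of 3 BALB/c-nu mice, and the teratomas, which are tumours of mixed differentiated tissue, were harvested after 14 days for polyA RNA-seq. The sources used here do not say whether a library came from 1 tumour or from several. The extraction protocol names an ESC line, whereas the tissue field names teratoma. Nude mice lack mature T cells but keep their other cells, and transcripts of host stroma or vessels could not be separated from those of the tumour, since both are mouse. The comparison asks how the transcripts of exchangeable BAF subunits differed between tumours of these genotypes. With 1 library per genotype, no difference had a replicate check within these data and no p-value was computed. The study itself reported lower ectodermal markers by qPCR and more cartilage by histology in E14-Sox2TA/WT teratomas, and those measurements were not used here.

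BAF complexes use the energy of ATP to move or evict nucleosomes, and most of their positions can be filled by alternative members of a gene family. In the developing nervous system, progenitors carry BAF53a (Actl6a), BAF45a (Phf10), BAF45d (Dpf2) and SS18, and neurons leaving the cell cycle replace them with BAF53b (Actl6b), BAF45b (Dpf1), BAF45c (Dpf3) and CREST (Ss18l1). The exchange of the actin-related subunit is known to run through microRNAs: REST holds miR-9-3p (also called miR-9*) and miR-124 down in cells that are not neurons, and in neurons these microRNAs repress Actl6a.

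The libraries held 50529171 (E14) and 49030281 (E14-Sox2TA/WT) reads on genes. Protein-coding mitochondrial genes held 4.99% and 9.22% of the TPM, and the part of this difference in the results was not tested. Sox2 had 14585 and 8623 reads and a TPM (a transcript's share of the library after correction for its length) of 246 and 130. The reads were not separated by allele. Log2 ratios are given as E14-Sox2TA/WT over E14 with 1 added to each TPM. On this scale the median was -0.18 over the 11578 genes that reached a TPM of 10 in either library, against 0.01 on FPKM, the same values before the rescaling to a fixed sum. Each ratio is therefore read against that shift.

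The neuronal-type subunits were all lower in the E14-Sox2TA/WT teratoma, by 4.14-fold to 7.68-fold in TPM, and the median of their log2 ratios was -2.0. The progenitor-type subunits ranged from 1.20-fold lower to 1.68-fold higher, with a median log2 ratio of 0.50. The ATPases were both slightly over 2-fold lower. Summed over its members, the neuronal type went from a TPM of 123 in the E14 teratoma to 24.2 in the E14-Sox2TA/WT teratoma, 5.08-fold lower, and the progenitor type from 244 to 327, 1.34-fold higher. Centred on the median of all genes, these medians became 0.68 for the progenitor type and -1.82 for the neuronal type.

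**Figure D1:**
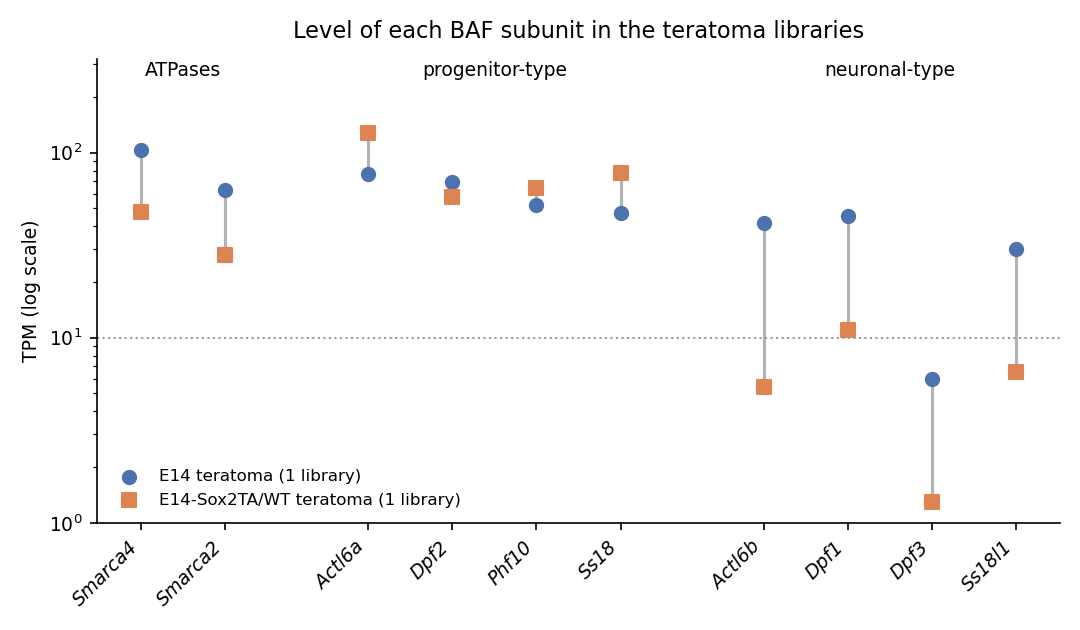
Level of each of the 10 BAF subunits, as TPM on a log axis, in the E14 teratoma (circles) and the E14-Sox2TA/WT teratoma (squares), with a dotted line at a TPM of 10. The 4 neuronal-type subunits on the right lie lower in the E14-Sox2TA/WT library, down to 1.29 for Dpf3, and the 4 progenitor-type subunits lie between 47.1 and 128 in both libraries.

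The study's rule for a differing gene was a fold change above 2 among genes that reach a TPM of 10 in either library. Applied here to the TPM ratio, it was met downwards by 18.7% and upwards by 10.8% of the 11578 genes that it could judge. These calls were more in each direction than the study reported for its teratomas, and why was not tested. The rule was met downwards by 3 of the 4 neuronal-type subunits. Actl6b and Ss18l1 passed its filter through the E14 library alone, and Dpf3 was under 10 in both. With the filter at a TPM of 1, which all 10 genes passed in both libraries, 4 of 4 neuronal-type subunits were over 2-fold lower, beside 18.9% of 18558 genes. No progenitor-type subunit passed in either direction, beside 19.3% of these genes higher.

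Among the actin-related subunits, which sit beside the ATPase and tie the complex to nuclear actin, the progenitor form was higher and the neuronal form lower in the E14-Sox2TA/WT teratoma. Actl6a (gene ID 56456, chr3:32708546-32726973, plus strand, GRCm38) had 3619 reads and a TPM of 76.2 in the E14 teratoma, and 6767 reads and a TPM of 128 in the E14-Sox2TA/WT teratoma. The latter value was 1.68-fold higher in TPM. Scaled by library totals, the reads were 1.93-fold higher, with a 95% Clopper-Pearson interval of 1.85 to 2.01, and this and the intervals that follow cover counting error only.

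Actl6b (gene ID 83766, chr5:137553361-137569582, plus strand), the form found in postmitotic neurons and needed for their dendrites to grow, had 1533 reads and a TPM of 41.5 in the E14 teratoma. It had 196 reads and a TPM of 5.41 in the E14-Sox2TA/WT teratoma. This was 7.68-fold lower in TPM and 7.59-fold lower in reads (6.54 to 8.85), the widest ratio among the 10 genes. In bulk RNA of a mixed tumour, fewer neurons and less of the transcript per neuron cannot be told apart.

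The starts of these genes are shown because the pair lay in opposite directions. Each line gives 250 bases before and, in capitals, 50 bases from a transcript start, 5′ to 3′ on the gene's strand, from RefSeq on GRCm38.p6. The Actl6a window is chr3:32708296-32708595 and the Actl6b window chr5:137553296-137553595, both on the plus strand. The Actl6a start is that of the gene as given above, and the Actl6b start, at 137553546, lies 185 bases inside it, so that another transcript of Actl6b begins within the lower-case bases.
Actl6a: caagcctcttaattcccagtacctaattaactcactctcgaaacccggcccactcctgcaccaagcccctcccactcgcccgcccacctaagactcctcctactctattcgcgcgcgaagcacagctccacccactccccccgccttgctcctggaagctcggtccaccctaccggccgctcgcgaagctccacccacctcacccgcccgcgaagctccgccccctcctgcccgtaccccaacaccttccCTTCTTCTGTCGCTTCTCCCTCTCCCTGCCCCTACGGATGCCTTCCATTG
Actl6b: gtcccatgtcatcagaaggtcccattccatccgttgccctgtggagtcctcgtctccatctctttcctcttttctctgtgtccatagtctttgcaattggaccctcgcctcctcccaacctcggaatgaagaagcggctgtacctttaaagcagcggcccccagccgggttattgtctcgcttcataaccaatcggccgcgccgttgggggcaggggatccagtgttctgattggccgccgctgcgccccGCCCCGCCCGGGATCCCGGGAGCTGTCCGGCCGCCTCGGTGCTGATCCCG
These windows hold 21 and 23 CpG dinucleotides, against a median of 7 over 32851 RefSeq promoters of the same length. Over the 9 of 10 genes with a window in the table, the CpG count ran from 17 to 62 and the GC content from 55.3% to 87.0%, and the median GC content of all promoters was 52.7%. Progenitor-type and neuronal-type genes thus both start in CpG-rich sequence.

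The starts used for Dpf1, Smarca4 and Smarca2 lie 53, 63 and 87 bases inside the gene spans, and those of the other genes with a window, apart from Actl6b, at their ends.

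Letters of known binding motifs were searched on both strands of these 9 windows. The SOX core ACAAAG was in none of them and in 18.7% of all promoters. The SOX core ACAATG was in Dpf3, 16 bases after its start, and in 12.6% of all promoters. The E-box CAGCTG, bound by neurogenic bHLH factors, was in Phf10, at position -180 from its start, and in 16.3% of all promoters. The letters TTCAGCACC, the left part of the RE1 element of REST, were in none of them and in 0.371% of all promoters. A match is only a run of letters, and its absence says nothing of sites outside the window.

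The microRNA that acts on Actl6a is shown with its site because the site lies in a transcript that was higher in the E14-Sox2TA/WT teratoma. Mature miR-9-3p, from RefSeq, has the same sequence at chr3:88215652-88215673, chr7:79505318-79505339 and chr13:83738858-83738879, all on the plus strand. Its seed, bases 2 to 8, is in capitals below. The longest annotated 3′ UTR of Actl6a, of 371 bases, holds 1 run of letters that pairs with this seed, at chr3:32726640-32726646 and 38 bases into the UTR, in capitals in the window chr3:32726629-32726657 of GRCm38.
miR-9-3p: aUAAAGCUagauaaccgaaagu
Actl6a site: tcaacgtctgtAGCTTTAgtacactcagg
Among the 20979 longest 3′ UTRs per gene, whose median length was 954 bases, 11.2% hold such a run. Of the 1942 that are nearer to Actl6a in length, 297 to 463 bases, 52 or 2.68% hold it. Smarca2, which was lower in the E14-Sox2TA/WT teratoma, also holds 1. The other 8 genes hold 0, among them Phf10 and Ss18, which were higher. In these letters the exchangeable pair differs: Actl6a carries the run and Actl6b, with a 3′ UTR of 196 bases, does not. Any part of this run in the ratios was not tested.

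The BAF45 subunits read histone tails through PHD fingers, and here the neuronal forms were lower while the progenitor forms stayed within 1.23-fold in TPM. Dpf1 (gene ID 29861, chr7:29303952-29317592, plus strand), the BAF45b of neurons, had 2512 reads and a TPM of 45.3 in the E14 teratoma. In the E14-Sox2TA/WT teratoma it had 688 reads and a TPM of 10.95, which was 4.14-fold lower in TPM and 3.54-fold lower in reads (3.25 to 3.86).

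Dpf3 (gene ID 70127, chr12:83213751-83487736, minus strand), the BAF45c that is also known from heart and skeletal muscle, was the scarcest of the 10 genes in both libraries. It had 414 reads and a TPM of 5.95 in the E14 teratoma, and 85 reads and a TPM of 1.29 in the E14-Sox2TA/WT teratoma. Its TPM was 4.59-fold lower and its reads 4.73-fold lower (3.73 to 6.04). Adding 1 to such low values shrinks its log2 ratio to -1.60, and with 0 added it was -2.20.

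Dpf2 (gene ID 19708, chr19:5896516-5912871, minus strand), a reader of acylated histone H3 that is present in most tissues, had 5513 reads and a TPM of 69.0 in the E14 teratoma, and 5124 reads and a TPM of 57.5 in the E14-Sox2TA/WT teratoma. It was the 1 progenitor-type gene that was not higher, 1.20-fold lower in TPM, and its log2 ratio of -0.26 lay close to the median of all genes. The ratio of its scaled reads was 0.958 (0.922 to 0.995).

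Phf10 (gene ID 72057, chr17:14944994-14961260, minus strand), the BAF45a that belongs to the PBAF form of the complex, had 3314 reads and a TPM of 52.2 in the E14 teratoma, and 3860 reads and a TPM of 64.4 in the E14-Sox2TA/WT teratoma. This was 1.23-fold higher in TPM and 1.20-fold higher in reads (1.15 to 1.26). Phf10 overlaps the gene 1600012H06Rik by 946 bases, and the sources used here do not say if reads were counted by strand. The neighbour had 1565 and 1820 reads.

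**Figure D2:**
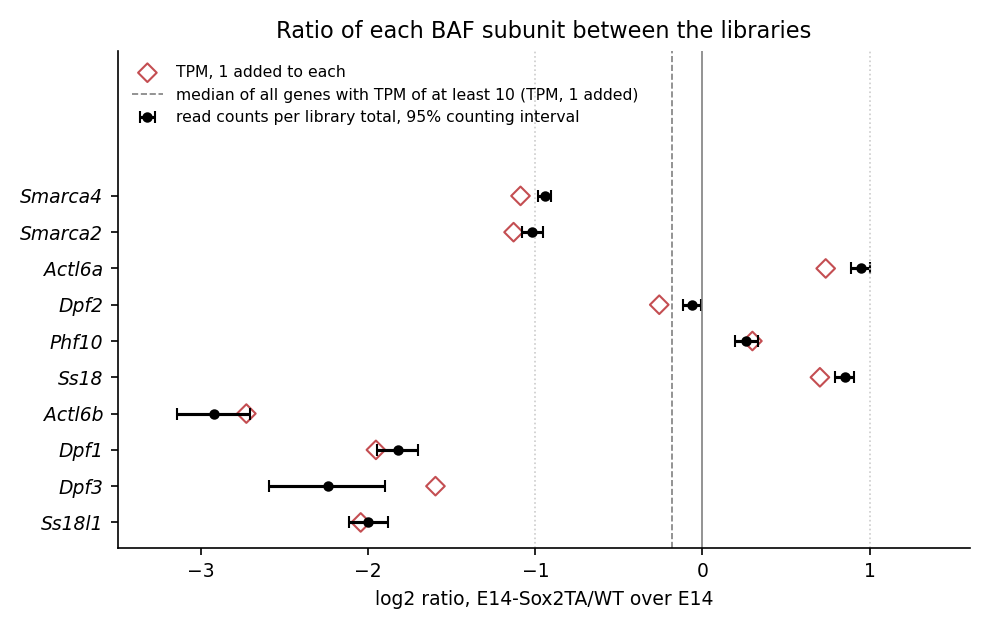
Log2 ratio of each subunit, E14-Sox2TA/WT over E14, from TPM with 1 added (diamonds) and from reads per library total (points, with 95% counting intervals), the dashed line being the median of all genes with a TPM of at least 10 and the dotted lines 2-fold. The 4 neuronal-type subunits lie between -2.73 and -1.60 on the TPM scale, Smarca4 and Smarca2 lie beside the lower 2-fold line, and Dpf2 lies beside the median of all genes.

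SS18 and CREST are subunits that bind other coactivators, the former being the gene fused in synovial sarcoma and the latter a calcium-responsive factor of dendrite growth. Ss18 (gene ID 268996, chr18:14625629-14684419) had 3713 reads and a TPM of 47.1 in the E14 teratoma, and 6499 reads and a TPM of 77.4 in the E14-Sox2TA/WT teratoma. It was 1.64-fold higher in TPM and 1.80-fold higher in reads (1.73 to 1.88), a ratio near that of Actl6a.

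Ss18l1 (gene ID 269397, chr2:180042483-180070201, plus strand), which encodes CREST, lay the other way. It had 3176 reads and a TPM of 30.2 in the E14 teratoma, and 771 reads and a TPM of 6.56 in the E14-Sox2TA/WT teratoma. This was 4.60-fold lower in TPM and 3.997-fold lower in reads (3.69 to 4.33).

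The ATPases BRG1 (Smarca4) and BRM (Smarca2) drive the complex, 1 in each. BRG1 is the ATPase of the complex in ESCs, and BRM is known to gain in differentiated cells. Smarca4 (gene ID 20586, chr9:21616106-21704230, plus strand) had 15464 reads and a TPM of 103 in the E14 teratoma, and 7804 reads and a TPM of 48.0 in the E14-Sox2TA/WT teratoma. It was 2.15-fold lower in TPM and 1.92-fold lower in reads (1.87 to 1.98).

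Smarca2 (gene ID 67155, chr19:26605073-26778321, plus strand) had 6467 reads and a TPM of 62.7 in the E14 teratoma, and 3096 reads and a TPM of 28.1 in the E14-Sox2TA/WT teratoma. It was 2.23-fold lower in TPM and 2.03-fold lower in reads (1.94 to 2.12). Both ATPases sat at the edge of the 2-fold rule: 2 passed on TPM, 1 on reads scaled by library totals and 0 on FPKM. On TPM, 18.7% of all genes were lower by this rule, and the share on the other scales was not computed. Centred on the median of all genes, their log2 ratios were -0.91 for Smarca4 and -0.95 for Smarca2, and relative to genes of like transcript length -0.53 and -0.87.

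Ratios taken within a library do not depend on how the libraries are scaled. They give each gene's share of the transcripts for a position, and the protein in the complex was not measured. Shares of TPM also depend on the transcript length applied to each gene in each library. At the actin-related position, Actl6b made up 35.3% of the summed TPM in the E14 teratoma and 4.06% in the E14-Sox2TA/WT teratoma. Actl6a exceeded Actl6b by 1.84-fold in the E14 teratoma and by 23.6-fold in the E14-Sox2TA/WT teratoma, so that the ratio differed by 12.9-fold. The odds ratio of the 4 read counts was 14.6 (95% interval 12.5 to 17.1).

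At the SS18 position the neuronal share was 39.1% in the E14 teratoma and 7.82% in the E14-Sox2TA/WT teratoma. Ss18 exceeded Ss18l1 by 1.56-fold in the E14 library and by 11.8-fold in the other, a 7.56-fold difference. The odds ratio of the reads was 7.21 (6.595 to 7.89).

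At the BAF45 position Dpf1 and Dpf3 together held 29.7% of the summed TPM in the E14 teratoma and 9.13% in the E14-Sox2TA/WT teratoma, a 4.21-fold difference in the ratio of neuronal to progenitor forms (odds ratio of reads 3.85, 3.54 to 4.198). By gene, Phf10 went from 30.3% to 48.0% of this family, Dpf1 from 26.3% to 8.17%, Dpf2 from 40.003% to 42.9% and Dpf3 from 3.45% to 0.965%. Dpf2 was the most abundant form in the E14 library and Phf10 in the E14-Sox2TA/WT library. Against Dpf2, the ratio of Dpf1 differed by 3.45-fold (odds ratio of reads 3.39, 3.09 to 3.73) and that of Dpf3 by 3.83-fold (4.53, 3.56 to 5.80). Against Phf10, that of Dpf1 differed by 5.11-fold (4.25, 3.86 to 4.69) and that of Dpf3 by 5.67-fold (5.67, 4.46 to 7.28). With the BAF45 forms summed, the counting intervals of the 3 positions did not overlap, the actin-related pair being the farthest apart between the libraries. Gene by gene they did, since that of Dpf3 to Phf10 overlapped that of Ss18l1 to Ss18. With 1 library per genotype these intervals hold no spread between tumours, so they do not rank the positions beyond the libraries.

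The ATPases gave no such difference in their shares of transcripts. Smarca2 made up 37.8% of their summed TPM in the E14 teratoma and 36.9% in the E14-Sox2TA/WT teratoma. Their ratio differed by 1.04-fold, and the odds ratio of the reads was 1.05 (1.002 to 1.11).

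**Figure D3:**
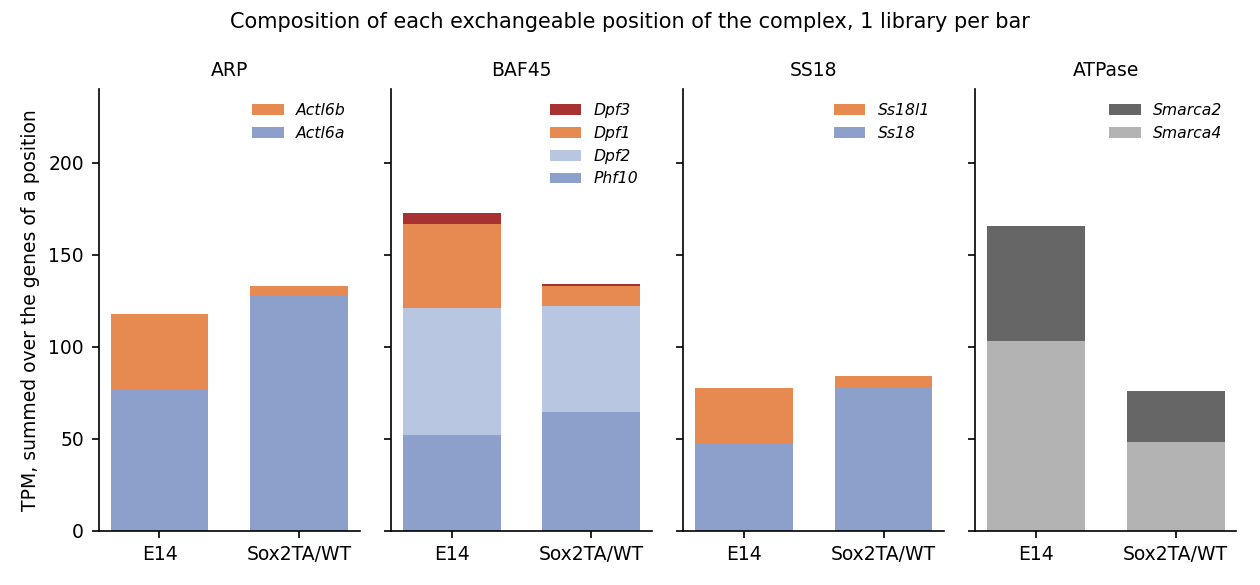
Summed TPM of the genes that can fill each position of the complex, with 1 bar per library and axes starting at 0 (ARP, actin-related protein; BAF45, PHD finger proteins; SS18, the SS18 and CREST position). Neuronal-type genes (orange and red) take a smaller part of the E14-Sox2TA/WT bars, 4.06% for ARP, 9.13% for BAF45 and 7.82% for SS18, whereas the ATPase bar is shorter with the parts near 37.8% and 36.9% for Smarca2.

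The sums of the positions were a measure chosen after the values were seen. Actl6a and Actl6b summed to a TPM of 118 in the E14 teratoma and 133 in the E14-Sox2TA/WT teratoma, 1.13-fold higher. Ss18 and Ss18l1 summed to 77.4 and 83.9, 1.08-fold higher. At both of these positions the sum differed less than either gene. The 4 BAF45 genes summed to 172 and 134, 1.29-fold lower, which on TPM was more than Dpf2 and Phf10 differed alone. The ATPases summed to 166 and 76.0, 2.18-fold lower. These sums carry the shift of the TPM scale. On FPKM, the sums in the E14-Sox2TA/WT teratoma were 1.298 (actin-related), 1.245 (SS18), 0.893 (BAF45) and 0.526 (ATPases) times the E14 values. On that scale the BAF45 sum differed more than Dpf2 (FPKM 29.6 and 28.3) but less than Phf10 (22.4 and 31.7).

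All 20 other BAF and PBAF subunits reached a TPM of 10 in either library. Of these, 6 were over 2-fold lower in the E14-Sox2TA/WT teratoma, beside 18.7% of all genes under the same rule. Bcl11a, Bcl11b, Bicra and Arid1b, among the 6, passed the filter through the E14 library alone. Bicral did so too and was not called. Of the 20, 0 were over 2-fold higher, and 14 were within 2-fold. The median of their log2 ratios was -0.84, 17 were below 0 and 15 were below the median of all genes. The ratios spread from -2.26 for Bcl11a to 0.80 for Smarcd2, beyond the highest of the progenitor type, 0.74 for Actl6a.

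The scaffold subunits of the Smarcc family also differed in their shares of transcripts. Smarcc1 (BAF155), the form of the ESC complex, had a TPM of 65.8 and 56.5 (log2 ratio -0.22), and Smarcc2 (BAF170) had 138 and 33.6 (-2.0). Smarcc2 was thus the larger part in the E14 teratoma, 67.7%, and the smaller part in the E14-Sox2TA/WT teratoma, 37.3%. The odds ratio of their reads was 3.45 (3.30 to 3.61). The summed TPM of Smarcc1 and Smarcc2 was 204 and 90.1, 2.26-fold lower, and neither gene was higher.

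Shares within the Smarcd family, which links the complex to transcription factors, differed too. Smarcd3 (BAF60c), a form of neurons and heart, had a TPM of 67.2 in the E14 teratoma and 15.0 in the E14-Sox2TA/WT teratoma, a log2 ratio of -2.09. Smarcd1 (BAF60a) had 75.2 and 78.006 (0.05), and Smarcd2 (BAF60b) had 30.1 and 53.2 (0.80). Smarcd3 made up 39.0% of the family in the E14 teratoma and 10.3% in the E14-Sox2TA/WT teratoma, and Smarcd2 17.4% and 36.4%. Smarcd3 overlaps Chpf2 by 1777 bases, and Chpf2 had 1644 and 1768 reads.

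Bcl11a and Bcl11b, zinc finger transcription factors of the developing brain that also join BAF, had a TPM of 37.0 and 11.3 in the E14 teratoma. In the E14-Sox2TA/WT teratoma they had 6.92 and 2.24, with log2 ratios of -2.26 and -1.92. Bicra, a subunit of the noncanonical complex, had 14.2 and 4.93 (-1.36), and Arid1b, an ARID subunit of canonical BAF, had 17.5 and 7.15 (-1.18). These are the remaining genes past 2-fold.

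The core subunits had smaller ratios. Smarcb1, which grips the nucleosome, had a log2 ratio of -0.36, and Smarce1, an HMG-box subunit, had -0.86. Arid1a had -0.88, Bcl7a -0.88 and Bcl7b -0.18. For Bcl7c the TPM ratio of -0.06 stood beside 5262 and 2434 reads, since the transcript length applied to it differed between the libraries.

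The subunits of the PBAF form spanned both sides of 0, with Arid2 at 0.18, Pbrm1 at -0.21 and Brd7 at -0.98. In the noncanonical form, Brd9 was at -0.81 and Bicral at -0.55. Apart from the genes named above as over 2-fold lower, none of these was past the rule in either direction.

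**Figure D4:**
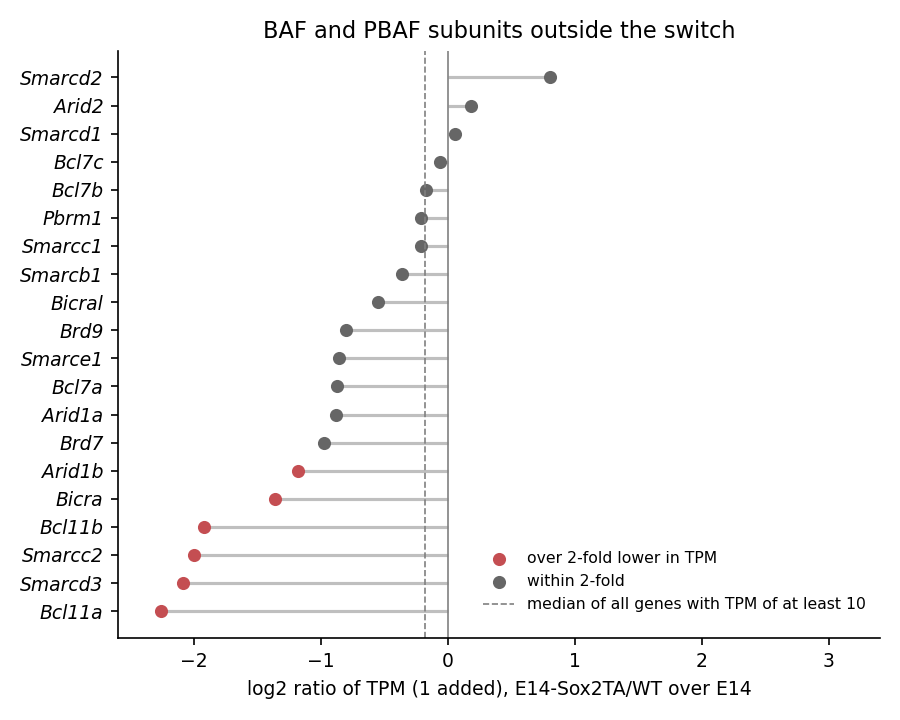
Log2 ratio of TPM with 1 added, E14-Sox2TA/WT over E14, for 20 BAF and PBAF subunits outside the switch, sorted, with the median of all genes with a TPM of at least 10 as a dashed line. The 6 genes in red are over 2-fold lower, Bcl11a lowest at -2.26, and Smarcd2 is highest at 0.80.

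Of 12 genes listed with the switch of the actin-related subunit, 5 had a TPM of at least 10. Of these, 1 was over 2-fold lower and 0 over 2-fold higher, beside 18.7% and 10.8% of all genes. The list also held the splicing pair Ptbp1 and Ptbp2, for which no action on the switch was examined. Rest, the repressor of neuronal genes, had 2265 reads and a TPM of 14.1 in the E14 teratoma, and 5238 reads and a TPM of 27.6 in the E14-Sox2TA/WT teratoma. Rest was 1.96-fold higher in TPM, just inside 2-fold, and 2.38-fold higher in reads (2.27 to 2.50). Its corepressor Rcor1 had a TPM of 13.9 and 10.7, a log2 ratio of -0.35.

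Mir124a-1hg, the host transcript of a miR-124 gene, had 3843 reads and a TPM of 39.5 in the E14 teratoma. It had 748 reads and a TPM of 6.89 in the E14-Sox2TA/WT teratoma, 5.74-fold lower, and passed the filter through the E14 library alone. Mir9-3hg, the host transcript of a miR-9 gene, had 779 and 494 reads and a TPM of 9.06 and 5.09, 1.78-fold lower. In TPM, Rest was higher in the E14-Sox2TA/WT teratoma, and Rcor1 and both host transcripts were lower. Any part of these genes in the ratios of Actl6a and Actl6b was not tested. The hairpins of miR-9 and miR-124 themselves had 0 to 5 reads each, where a count of 0 allows up to 3 reads, in a polyA library, which does not retain short RNAs, so no level of the mature microRNAs can be read from them.

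Ptbp1, a splicing repressor of progenitors that miR-124 represses, had a TPM of 256 and 312, a log2 ratio of 0.28. Ptbp2, the form that follows it in neurons, had 69.4 and 67.2, a log2 ratio of -0.04. This splicing pair lay within 2-fold on TPM. In reads scaled by library totals, Ptbp2 was 1.28-fold higher, so its direction turned with the scale.

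Markers of the cell types that such a tumour can hold differed between the libraries, and their part in the subunit ratios was not tested. All 15 neuron markers reached a TPM of 10 in either library. In the E14-Sox2TA/WT teratoma 14 were over 2-fold lower and 0 higher, beside 18.7% and 10.8% of all genes under the same rule. Rbfox3, Syt1 and Eno2, among the 14, passed the filter through the E14 library alone. The median log2 ratio of the 15 markers was -2.18. Their summed TPM was 3617 in the E14 teratoma and 603 in the other, 5.996-fold lower, a size within the range of the neuronal-type subunits. Tubb3, the tubulin of neurons, had a TPM of 1722 and 170, and Gap43, a growth cone protein, 474 and 106.

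Neural progenitor markers were also lower, 7 of the 10 that passed a TPM of 10 by over 2-fold, and 0 higher. Of all genes, 18.7% were lower and 10.8% higher by this rule. Sox1 and Neurog2, among the 7, passed the filter through the E14 library alone. The summed TPM of the list was 4813 and 1928. Fabp7, a radial glia protein, had 2497 and 708, and Vim 1530 and 914. The progenitor-type subunits, with a median log2 ratio of 0.50, did not lie with these markers, whose median was -1.57.

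All 9 markers of pluripotent cells were over 2-fold higher in the E14-Sox2TA/WT teratoma, beside 10.8% of all genes under the same rule. Apart from Dppa5a and Pou5f1, these markers passed the filter through the E14-Sox2TA/WT library alone. The median log2 ratio of the 9 was 3.64, and their summed TPM was 77.6 and 1900. Dppa5a had 29.1 and 1144, and Pou5f1, which encodes Oct4, 19.0 and 304. The progenitor-type subunits are known from ESCs as well as from neural progenitors. Actl6a, Phf10 and Ss18 lay in the direction of these markers, at much smaller ratios. Of 6 proliferation genes, 1 was over 2-fold lower and 0 were over 2-fold higher, beside 18.7% and 10.8% of all genes. The median log2 ratio of the 6 was 0.54, and their summed TPM was 745 and 894. Pcna, the replication clamp, had a TPM of 234 and 324, and Ccnb1, a mitotic cyclin, 87.5 and 160. The gene called lower was Mki67, at 137 and 54.7.

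Markers of muscle and cartilage were mixed in direction. Of all genes, 18.7% were lower and 10.8% higher with the filter at a TPM of 10, and 18.9% and 19.3% at 1. Of 10 genes of skeletal and cardiac muscle, 3 had a TPM of at least 10 in either library. Of these, 1 was over 2-fold lower and 0 higher. The gene called lower was Myh3 (24.7 and 5.34), which passed the filter through the E14 library alone. With the filter at a TPM of 1, 1 was lower and 3 were higher, namely Actn2, Myh6 and Myl2. Acta1, the actin of skeletal muscle, had a TPM of 33.6 and 18.2, and the summed TPM of the list was 94.6 and 55.0. Myl2 had 0 reads in the E14 teratoma and 24 in the other, and passed the filter of 1 through the latter alone. Of 5 cartilage genes, 3 had a TPM of at least 10, and 1, Sox9 (44.1 and 16.9), was over 2-fold lower. Col2a1, the main collagen of cartilage, had 58.0 and 74.8. The summed TPM was 117 and 107, and without Sox9, which the neural progenitor list also holds, it was 72.5 and 90.4. With the filter at a TPM of 1, 1 was lower and 1, Acan (47 and 207 reads), was higher. Acan passed this filter through the E14-Sox2TA/WT library alone. Matn1 had 0 reads in the E14 teratoma and 46 in the other.

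Set against the summed neuron markers, the neuronal-type subunits differed less between the libraries. Per 1000 TPM of these markers, Actl6b had 11.5 in the E14 teratoma and 8.96 in the E14-Sox2TA/WT teratoma, 0.781 times the E14 value. Dpf1 had 12.5 and 18.2, 1.45 times, Dpf3 had 1.64 and 2.15, 1.31 times, and Ss18l1 had 8.36 and 10.9, 1.30 times. Tubb3 made up much of the marker sum. Without it the sum was 1895 and 433, 4.38-fold lower, and the same ratios became 0.570 for Actl6b, 1.06 for Dpf1, 0.953 for Dpf3 and 0.9504 for Ss18l1. The direction of Dpf3 and Ss18l1 by this measure thus turned with that marker, a check chosen after the values were seen. These are ratios of sums over a mixed tumour and are not levels per neuron.

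**Figure D5:**
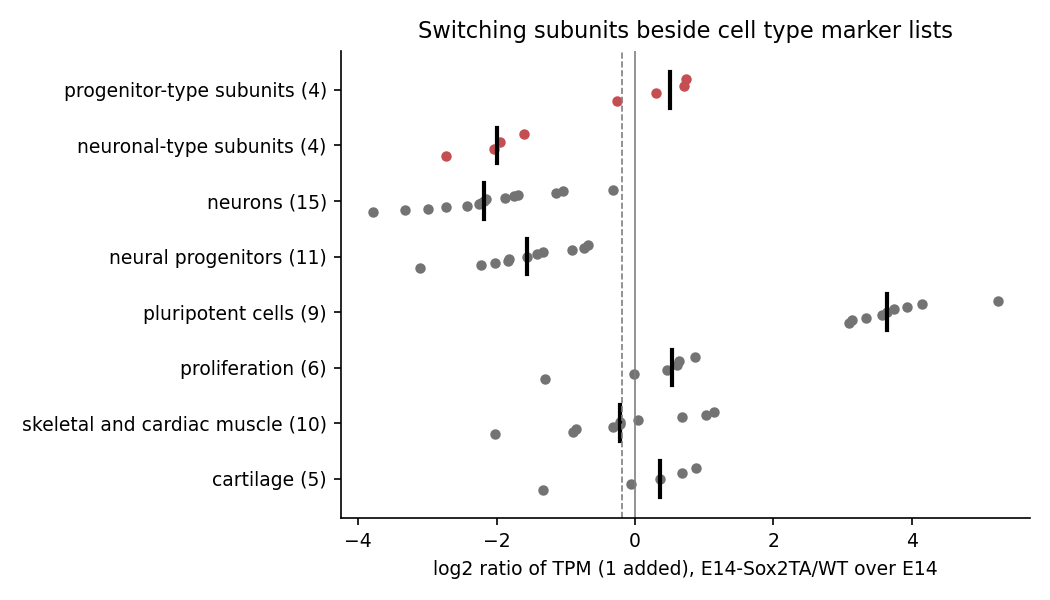
Log2 ratio of TPM with 1 added, E14-Sox2TA/WT over E14, for the progenitor-type and neuronal-type subunits (red) and for lists of cell type markers (grey, number of genes in parentheses), with a bar at each list's median and a dashed line at the median of all genes. The neuronal-type subunits, with a median of -2.0, lie among the neuron markers, with a median of -2.18, and the pluripotent markers lie at 3.64.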

How the data were processed

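PolyA RNA from E14 and E14-Sox2TA/WT teratomas, 1 library each, was sequenced on an Illumina NovaSeq instrument. The submitters' processing notes name bcl2fastq 2.20.0, Trimmomatic, HISAT2 2.1.0 and StringTie 2.1.3b and list both mm10 and hg19, and the table analysed is the mouse one. The authors deposited whole-number read counts per gene, not normalized. The authors also deposited FPKM, scaled by transcript length and library, and TPM, rescaled to a fixed sum. Whether the counting used strand is not given in the sources used here. The 2 libraries held 50529171 and 49030281 reads on genes.

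Groups follow the genotype labels. Each gene's TPM with 1 added was compared as a log2 ratio, E14-Sox2TA/WT over E14. A gene was called at over 2-fold in TPM, with nothing added, if either library reached a TPM of 10, the study's rule. No test was run. Read ratios carry 95% Clopper-Pearson intervals and pairs a conditional interval of the odds ratio. Coordinates are of GRCm38 (mm10), where 45679 of 45777 gene IDs and 10 of 10 members matched RefSeq, and 3′ UTRs are of GENCODE M21. Protein sequences and miR-124 were not used here.

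The members and all lists (other subunits, genes listed with the switch, cell type markers) were chosen with earlier results of these data known. Genes named are all members, genes of the subunit and switch lists, the 2 with the highest TPM of each marker list in either library and those at 0 reads, and Sox2. Rbfox3, Syt1, Eno2, Sox1, Neurog2, Mki67, Acan, Actn2 and Myh6 fall outside this rule. They were named after their values were seen, as genes behind a count. Alternatives covered the pseudocount, filter, fold, FPKM, counts scaled by library total, TMM or size factors, centring on all genes or on genes of like length, and members or markers left out. The scripts were tested on simulated data. R 4.3.3 with edgeR 4.0.16 (TMM factors only) and Python 3.11.15 with matplotlib 3.10.9, scipy 1.17.1, pandas 2.3.3 and numpy 2.4.6 were used. The authors' pathway analysis was not repeated.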

Additional observations from a re-analysis of the deposited data

How the results depend on the processing

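Each of the 10 members and their pairs kept its direction under every alternative run on it. Set against the summed neuron markers, Dpf3 went from 1.31 to 0.953 and Ss18l1 from 1.30 to 0.9504 without Tubb3, by the smaller fall of the remaining sum. Of the alternative values of the counts, medians and pair ratios, 95 stayed within the margin set for each (1.5 times for counts, the counting interval for ratios) and 27 moved, and of the log2 ratios of single members 40 stayed and 40 moved. With a TPM of at least 10 required in both libraries, 1 neuronal-type subunit was called lower, since Actl6b and Ss18l1 drop out by that filter. Above 1.5-fold, 2 progenitor-type subunits were called higher. Shares of all genes were computed only for over 2-fold in TPM, with the filter at 10 or 1 in either library. None therefore stands beside the counts under other settings. The 2 calls of the ATPases became 1 on reads scaled by library totals and 0 on FPKM, centred on all genes, centred on genes of like length, above 3-fold or with the whole counting interval beyond 2-fold. The progenitor-type median of 0.50 became 0.68 on FPKM and when centred on all genes, 0.42 with TMM factors and 0.43 with size factors. Without Dpf2, an alternative chosen after seeing the data, it was 0.70. The neuronal-type median of -2.0 became -1.70 on FPKM, -1.82 when centred and -2.20 with no pseudocount. The log2 ratio of ratios of Actl6b to Actl6a, -3.47, was -3.87 on reads. That of Ss18l1 to Ss18, -2.75, was -2.90 with 0.1 added and -2.92 with nothing added. Under the same settings and on reads, Dpf3 to Dpf2 went from -1.34 to -1.85, -1.94 and -2.18, and Dpf3 to Phf10 from -1.90 to -2.42, -2.50 and -2.50, since 1 is large beside a TPM of 1.29. Dpf1 to Phf10 went from -2.25 to -2.09 on reads, and Smarca2 to Smarca4 from -0.04 to -0.35 against genes of like length. Where no construction is named, the cause was not tested. No paired analysis was possible because each genotype has 1 library, and for the same reason no library could be left out.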

Other observations

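The count and the FPKM of a gene give the transcript length that the authors' pipeline applied to it in each library, a check chosen after the values were seen. Among 14243 genes with at least 100 reads in both libraries, this length differed by over 10% in 7.67%. Of the 10 subunits it was over 10% shorter in the E14-Sox2TA/WT teratoma for Phf10 (2932 and 2483 bases, 15.3%), Dpf3 (3213 and 2721 bases, 15.3%) and Actl6b (1704 and 1502 bases, 11.9%). Dpf3 had 85 reads in that library and was not among the 14243 genes. Of the other subunits, Bcl7c differed most, from 4793 to 2082 bases, 56.6% shorter. Which isoforms these lengths stand for was not tested.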
